A study of Mus musculus with 2 samples.

Results

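The regions described here are the open promoters of mouse erythroblasts that are poor in CpG, the dinucleotide of C followed by G. They were chosen by a rule on the deposited peak lists and the genome sequence. A protein-coding gene counted as open when each of the 2 replicates had a listed interval within 1 kb of any of its annotated transcription start sites. It was called CpG-poor when the ratio of observed to expected CpG was below 0.35 in the 1 kb either side of the start site nearest the strongest summit. The rule picked 639 genes, 7.04% of the 9080 open genes on chromosomes 1 to 19 and X. Over all 21755 protein-coding genes tested, 41.7% were open, and openness and the CpG ratio, having chosen the genes, are given as descriptions only.

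The assay was ATAC-seq, in which a transposase inserts adapters into accessible DNA, and the cells were erythroblasts, which still have a nucleus and mature into red blood cells. Primary cells came from male C57BL/6J adults aged 5 to 6 weeks, unmodified as far as the labels say, and each library was made from 50000 cells. The series has 1 group of 2 biological replicates, so it allows no contrast between conditions, and no test across samples was made for any comparison below. Both replicates carry the same donor identifier, so the spread between them may be partly technical.

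Most mammalian promoters lie in CpG islands, stretches that keep their CpG because they are mostly free of DNA methylation, and many of those are open in every tissue. Promoters poor in CpG more often belong to genes with tissue-restricted expression, and opening them usually needs sequence-specific activators. In red cell precursors the main activators are Gata1, which binds GATA words, Tal1 with Lmo2 and Ldb1, which bind E-boxes and E-box-GATA composites, Klf1, which binds CACCC words, and Nfe2 with a small Maf partner. TATA boxes, which place the start of transcription at a fixed distance, are also commoner in CpG-poor promoters.

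The deposited lists hold 17766 intervals for replicate 1 and 18826 for replicate 2 on the chromosomes used, with no read counts, so the depth behind a value is unknown. Of the CpG-poor genes, 48 belong to lists of red cell genes and 6 to lists of markers of other cell types. These are 29.4% of the 163 open red cell genes and 31.6% of the 19 open markers, against 7.04% of all open genes. Once open, genes of both kinds of list were thus CpG-poor at similar shares. Ranges in brackets after a share are 95% Wilson intervals, which cover counting error only, and genes that share an interval are not independent. In bulk chromatin, opening in fewer cells and weaker opening in all cells cannot be told apart.

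Sequences at 9 of these promoters are shown because they carry the words counted below. Each covers the strongest summit with 60 bp either side on the strand of the gene (genome GRCm38.p6, mm10), in windows that overlap no annotated exon. Capitals mark GATA words (AGATAA or TGATAA), E-boxes (CAGATG or CAGCTG) and CACCC-type words (CCNCNCCC), read on either strand.
Klf1, chr8:84901242-84901362, plus strand: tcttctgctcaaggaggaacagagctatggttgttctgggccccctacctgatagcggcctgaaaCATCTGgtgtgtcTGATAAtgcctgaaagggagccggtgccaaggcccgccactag
Nfe2, chr15:103258473-103258593, minus strand: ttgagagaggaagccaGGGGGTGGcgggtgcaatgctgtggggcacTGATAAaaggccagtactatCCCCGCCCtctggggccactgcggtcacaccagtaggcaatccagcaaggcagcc
Gata1, chrX:7967927-7968047, minus strand: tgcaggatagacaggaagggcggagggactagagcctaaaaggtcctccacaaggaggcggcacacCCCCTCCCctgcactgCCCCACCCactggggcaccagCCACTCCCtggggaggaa
Slc4a1, chr11:102363789-102363909, minus strand: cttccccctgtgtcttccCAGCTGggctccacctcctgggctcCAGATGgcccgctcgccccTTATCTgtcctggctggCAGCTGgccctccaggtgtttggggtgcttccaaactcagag
Xpo7, chr14:70708060-70708180, minus strand: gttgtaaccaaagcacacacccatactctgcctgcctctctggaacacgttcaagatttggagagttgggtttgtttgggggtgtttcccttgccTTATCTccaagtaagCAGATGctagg
Atp2b4, chr1:133754400-133754520, minus strand: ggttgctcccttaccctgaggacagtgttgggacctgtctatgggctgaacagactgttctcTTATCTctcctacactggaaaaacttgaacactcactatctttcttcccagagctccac
Aqp1, chr6:55336294-55336414, plus strand: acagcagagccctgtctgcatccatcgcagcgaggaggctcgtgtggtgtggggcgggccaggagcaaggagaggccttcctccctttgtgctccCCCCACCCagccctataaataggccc
Car5b, chrX:164028013-164028133, minus strand: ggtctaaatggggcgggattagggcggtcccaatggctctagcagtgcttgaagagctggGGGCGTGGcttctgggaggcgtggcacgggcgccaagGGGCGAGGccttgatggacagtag
Cntrl, chr2:35132104-35132224, plus strand: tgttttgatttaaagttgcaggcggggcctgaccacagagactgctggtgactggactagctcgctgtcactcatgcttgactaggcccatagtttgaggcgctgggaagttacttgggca

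The Klf1 and Xpo7 windows hold a GATA word with an E-box, and the Nfe2 window a GATA word between 2 CACCC-type words. At Slc4a1 a GATA word lies among 3 E-boxes. Gata1 itself shows 3 CACCC-type words and no GATA word in its window. Atp2b4 holds a GATA word alone, Aqp1 and Car5b hold CACCC-type words, and Cntrl, among the strongest CpG-poor promoters, holds none of the words.

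Composite sites are shown at 30 bp or less, on the strand of the word, for 9 of the 10 red cell genes whose summit window holds CTG and AGATAA separated by 7 or 8 bases. The capitals are the E-box part CTG and the GATA word, which are 7 bp apart in Ctse and Nprl3 and 8 bp apart in the others. The tenth gene, Fech, is named without its sequence.
Ackr1, chr1:173333456-173333484, plus strand: cagcagCTGtggctccaAGATAAgtgccc
Add2, chr6:86077979-86078007, minus strand: ccctgtCTGccatgttcAGATAAaggcag
Cd47, chr16:49800129-49800157, minus strand: tgagggCTGtcctgtagAGATAAtaaacc
Ctse, chr1:131638380-131638407, minus strand: cctcagCTGcaaatggAGATAAccacgc
Kel, chr6:41704370-41704398, minus strand: tctcccCTGagaaactaAGATAAaagagg
Nprl3, chr11:32256317-32256344, minus strand: cagtccCTGgtctcttAGATAAgaggca
Prdx2, chr8:84971166-84971194, minus strand: ggagtgCTGgagacaggAGATAAaggact
Slc29a1, chr17:45593580-45593608, plus strand: gccaccCTGtagctgggAGATAAgacagc
Tspo2, chr17:48450826-48450854, minus strand: gccagtCTGctctaaagAGATAAgattgg

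Genes with a CpG-poor outermost 5' end were seldom open, and among them the share was higher for red cell genes than for other cells' markers. The lists were written with earlier results of these data known, so this contrast is a description only. There were 8521 protein-coding genes with a CpG-poor outermost 5' end, and 9.89% of them were open at any annotated start. Fewer were open at a CpG-poor start, 443 genes or 5.2% (4.75% to 5.69%), since the open start of the other 400 had a ratio at or over 0.35. Of genes whose 5' end had a ratio at or over 0.35, 62.2% were open (61.4% to 63.1%). By the ratio of the 5' end, the share open at any start was 4.08% below 0.15, 10.9% from 0.15 to 0.25 and 17.9% from 0.25 to 0.35. A further 108 genes (1.27%) were open in 1 replicate alone. When the outermost 5' end was the one start site allowed, 4.84% were open, and with intervals at or above the median enrichment of their list 5.69% were open at any start.

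Among red cell genes with a CpG-poor 5' end, 47 of 72 were open at any start (65.3%, 53.8% to 75.2%), and 36 were open at a CpG-poor start (38.7% to 61.3%). Open at a CpG-poor start were 13 of 20 genes of the membrane and blood groups, 7 of 9 of receptors and terminal maturation, 6 of 9 transcription regulators, 3 of 4 transporters and 4 of 9 globin genes. The counts were 2 of 15 for heme and iron genes and 2 of 7 for enzymes. The remaining 11 were open at a start with a ratio at or over 0.35. They were the regulators Cbfa2t3, Runx1 and Stat5a, the heme and iron genes Abcg2, Fth1, Slc11a2, Slc48a1 and Steap3, the enzymes Aldoa and Hagh, and Epor, the erythropoietin receptor.

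The globin genes with a CpG-poor 5' end that were not open were the embryonic Hba-x, Hbb-y and Hbb-bh1, together with Hbb-bh2 and Hbq1a. Among heme and iron genes they included Alas2, the erythroid first enzyme of heme synthesis, and the liver genes Hamp, Hp, Hpx and Trf. Among blood group genes they included Abo, Fut1 and Fut2, glycosyltransferases of the ABO and H antigens, and Rhbg, an ammonium transporter.

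**Figure D1:**
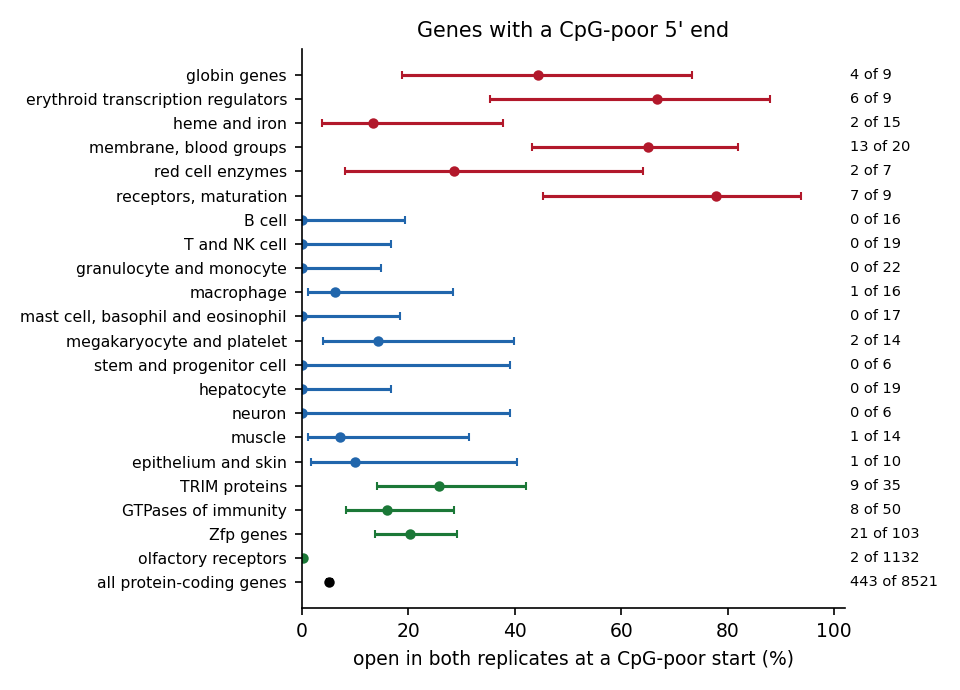
Share of genes with a CpG-poor outermost 5' end that were open in both replicates at a CpG-poor start. Drawn are red cell and other-cell lists with at least 5 such genes, and selected families. The lists were written with earlier results of these data known. Points are percentages, bars 95% Wilson intervals, and the counts stand at the right. Red cell lists (red) lie between 13.3% and 77.8%, lists of other cell types (blue) between 0% and 14.3% and all protein-coding genes (black) at 5.2%. The families drawn (green) are TRIM proteins, immunity GTPases, Zfp genes and olfactory receptors, between 0.177% and 25.7%. Families not drawn include vomeronasal receptors with 0 of 328, serpins with 1 of 59 and Schlafen genes with 2 of 8.

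Markers of other cells with a CpG-poor 5' end were open at any start in 9 of 159 cases (5.66%, 3.01% to 10.4%), near the 9.89% of all such genes. At a CpG-poor start 5 were open (3.14%, 1.35% to 7.15%), near the 5.2% of all such genes. The B cell, hepatocyte, neuron and mast cell lists had 0 open of 16, 19, 6 and 17. These include Cd79a and Cd79b of B cells, Alb and Ttr of liver and Cpa3 and Fcer1a of mast cells. Of the granulocyte and monocyte list 1 of 22 was open, Mmp9 at another start, and the defining genes Mpo, Elane, S100a8, S100a9 and Ly6g were not open. Megakaryocyte genes were open at a CpG-poor start in 2 of 14 cases (4.01% to 39.9%), and Itga2b at another start.

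The promoter intervals of the 639 genes were weaker and narrower than those of other open genes. Strength is the authors' fold enrichment at the summit, and its percentile is the share of intervals of the same list at or below that value. The strongest summit was itself picked by this percentile, and the values are a description. Enrichments ran from 3.05 to 19.1 in replicate 1 and from 3.32 to 18.4 in replicate 2, with medians of 7.83 and 7.93. The 8441 other open genes had medians of 9.86 and 9.97. Median percentiles were 49.98 and 52.1 against 71.8 and 73.1. The top 20% of both lists by enrichment held 107 CpG-poor promoters (16.7%, 14.1% to 19.8%) and 34.0% of the others. Ranked by the authors' −log10 p instead, the top 20% held 12.4% and 38.8%. The lowest 20% by enrichment held 15.8% in replicate 1 and 13.5% in replicate 2, against 4.88% and 4.09%.

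The median interval was 665 bp wide in replicate 1 and 659 bp in replicate 2, against 916 bp and 901 bp for other open genes. A single summit was listed in 35.1% and 36.6% of cases, against 19.2% and 20.7%. Strongest summits of both replicates lay within 50 bp of each other for 580 of the 639 genes (90.8%). In the bins of the ratio from 0.35 up, this share was 93.3% to 94.7%. For 44 genes the strongest intervals of the replicates did not overlap, and Slc4a1 is one of these. By bin of the ratio, these intervals overlapped at 91.3% to 94.9% of CpG-poor genes and at 98.3% to 98.9% of other open genes. At most of the 44 genes other promoter intervals did overlap, since 633 of the 639 had a pair sharing at least 1 bp. All 639 genes also had their interval in the authors' list that combines the replicates, as did 100% of other open genes in each bin of the ratio. That list derives from the alignments of both replicates, so it is not separate evidence.

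Many of the intervals lay off the start site itself. The strongest summit was within 200 bp of the nearest start for 364 genes (56.96%, 53.1% to 60.8%), against 84.5% of other open genes, and over 500 bp away for 31.3% against 5.53%. The interval covered an annotated start of the gene in 399 cases (62.4%), against 94.3%. For 345 genes the nearest start was not the outermost one, so 46.0% sat at the annotated 5' end of the gene against 72.9% of the others. In 196 genes (30.7%) the outermost 5' end had a ratio at or over 0.35, and the CpG-poor interval was at another start. The word promoter is therefore the rule's, by distance to an annotated start, and 31 genes (4.85%) had another protein-coding start closer to the summit. For other open genes this share was 9.78% at ratios from 0.35 to 0.5, 14.5% from 0.5 to 0.75 and 15.3% from 0.75 up. With the outermost 5' end as the only start site, 412 genes met the rule.

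**Figure D2:**
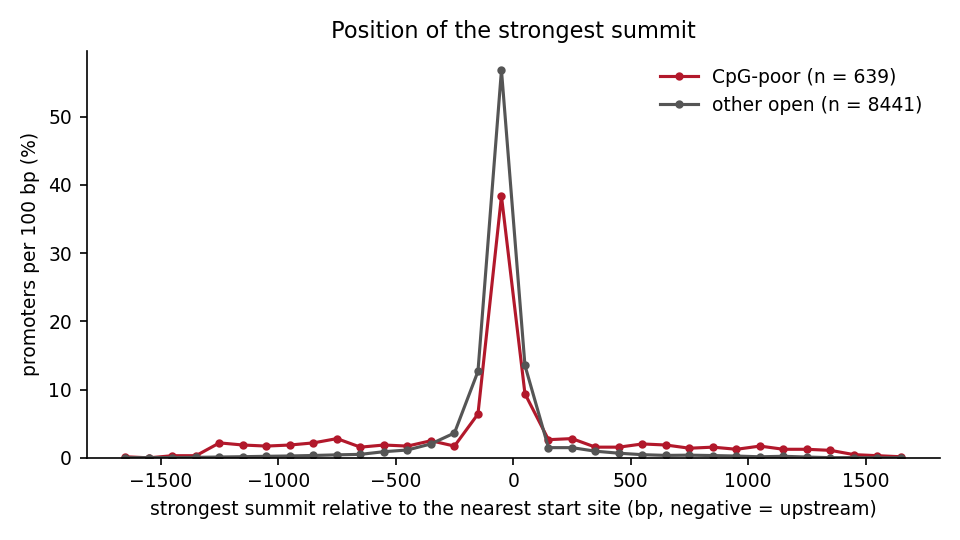
Distance from the strongest summit to the nearest annotated start site of the gene, in bins of 100 bp, as a percentage of each group. CpG-poor promoters (red, n = 639) have a lower peak at the start and longer tails on both sides than other open promoters (grey, n = 8441), and 12.8% against 1.26% lie over 1000 bp away.

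In a shorter window at the summit, part of the genes no longer fell below the threshold. In the 501 bp centred on the summit, 263 of the 639 genes (41.2%) had a ratio at or over 0.35, against 99.03% of other open genes. The share was 62.6% for genes chosen at 0.25 to 0.35, 15.1% at 0.15 to 0.25 and 6.78% below 0.15. All were chosen below 0.35 in the longer window, so they could cross the threshold only upward, and the share does not show a summit richer in CpG than its surroundings. Median GC content of the 151 bp at the summit was 56.3%, against 65.6% for other open genes.

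GATA words contain no CpG, so the rule did not count them directly, and they were more frequent at CpG-poor summits than in any of the other windows compared. Within 75 bp of the strongest summit, 182 CpG-poor promoters held AGATAA or TGATAA on either strand (28.5%, 25.1% to 32.1%). Other open promoters held one in 3.65% (3.27% to 4.07%). In windows of the same length 1000 bp to either side of the CpG-poor summits, free of intervals, the share was 12.1% (144 of 1188). At the 5' ends of the 7570 CpG-poor genes open in neither replicate it was 13.04%, and at those of all protein-coding genes 6.72%. The same letters reversed (AATAGA or AATAGT) were found in 3.91% of CpG-poor promoters and 3.71% of other open promoters, against 10.8% in the flanking windows.

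The share with a GATA word was lower at higher ratios. It was 50.8% below 0.15, 38.8% from 0.15 to 0.25, 18.6% from 0.25 to 0.35 and 5.58% from 0.35 to 0.5. The words were not confined to summits away from the start. With the summit within 200 bp of the start, 24.2% of CpG-poor and 2.82% of other open promoters held one, and farther away 34.2% and 8.20% did. Where the nearest start was the outermost, 18.4% held one, and at other starts 37.1%. With the outermost 5' end as the only start site allowed, the share was 17%.

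**Figure D3:**
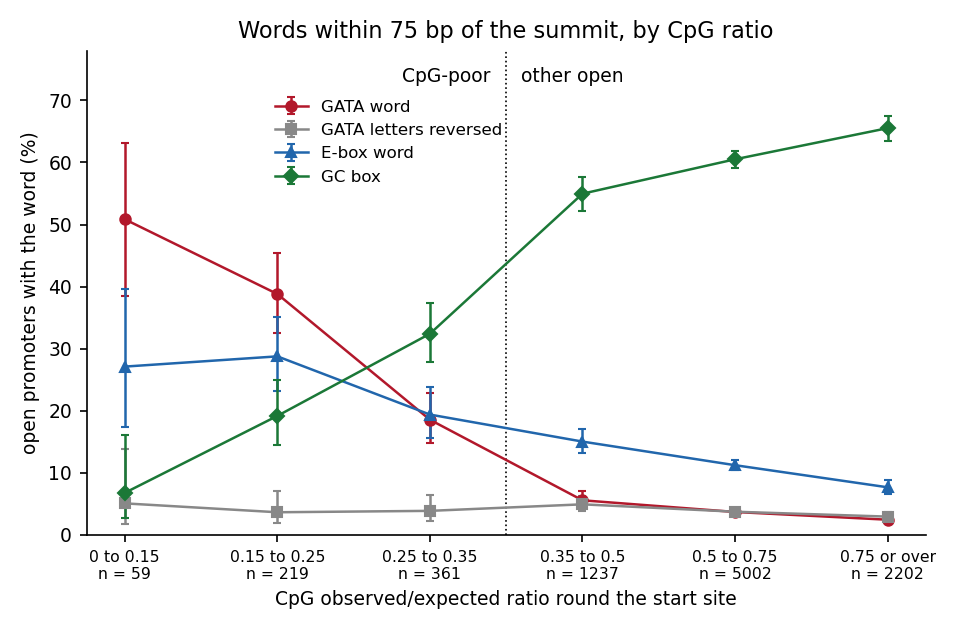
Share of open promoters with a word within 75 bp of the strongest summit, by CpG ratio round the start site, with 95% Wilson intervals and the number of promoters under each bin. GATA words (red) go from 50.8% to 2.45% from left to right and the GC box GGGCGG (green), which contains CpG, the other way, while E-boxes are in blue and the reversed GATA letters (grey) stay between 2.95% and 5.08%.

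Composites of an E-box part and a GATA word were rarer but more uneven. They were found at 42 CpG-poor promoters (6.57%, 4.90% to 8.77%), at 12 of the 8441 others (0.142%), at 1 of 1188 flanking windows and at 0.357% of the 5' ends of CpG-poor genes open in neither replicate. Besides the red cell genes shown above, they include Utrn, the dystrophin relative utrophin, Ssbp3, a partner of Ldb1, Kdm3a, a histone demethylase, Kmt2d, a histone methyltransferase, and Rgs18, a regulator of G protein signaling. These genes were chosen after their values were seen. E-boxes alone were found in 23.3% against 10.9% of other open promoters and 18.6% of flanks. The NFE2 word GCTGAGTCA was in 8 CpG-poor promoters (1.25%) and in 0.190% of the others.

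CACCC-type words, which may contain CpG, were in 38.2% of CpG-poor promoters, 56.1% of others and 18.1% of flanks. Words with CpG in them were fewer, and the rule itself selects against them. The GC box was in 25.5% against 61.0%, the ETS word CCGGAAG in 4.69% against 19.2% and the CRE word TGACGT in 3.91% against 11.8%. The NF-Y word (GCCAAT or ACCAAT) has no CpG and was in 19.1% against 29.5%, with 8.25% in flanks. The CTCF core (AGGGGGC or AGGTGGC) differed little, with 14.1% against 13.7%. RUNX words (TGTGGT) were in 10.02% against 4.92%, but in 11.7% of flanks. A match describes the letters in the window and is not evidence that a factor was bound.

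TATA words were few. A TATAAA or TATATA word lay 20 to 40 bp upstream of the start on the gene's strand in 11 of the 639 genes (1.72%, 0.964% to 3.06%) and in 0.806% of other open genes. At the outermost 5' ends of CpG-poor genes open in neither replicate the share was 6.91% (523 of 7570). The 11 include the water channel Aqp1, the urea transporter Slc14a1, the chemokine receptor Ackr1 and the erythroid nuclear protein Hemgn. The others were Nqo1, Tnnc1, Muc1, Syngr1, Olfr67, Hcrt and Msmb. All of these but Muc1 and Syngr1 were named after their values were seen. In 7 of these 11 the strongest summit lay over 200 bp from that start.

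Open sites away from annotated starts were more frequent near CpG-poor promoters. A distal interval, which may lie inside a gene, found in both replicates and over 1 kb from any annotated start, lay within 50 kb of the start for 431 of the 639 genes (67.4%, 63.7% to 71.0%). The share was 48.2% for other open genes and 16.97% for CpG-poor genes open in neither replicate. At least 5 such intervals lay near 8.76% against 3.27%. The largest numbers were 9 at Ldlrad4, a regulator of TGF-beta signaling, and 8 at Cd47, Hba-a1, Hbb-bs and Arhgap23. Genes with a GATA word at the promoter had a distal interval in 76.4% of cases and the other CpG-poor genes in 63.9%.

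Both pairs of adult globin genes had CpG-poor promoters of low enrichment. At Hba-a1 the summit had 3.28 in replicate 1 and 3.37 in replicate 2, and at Hba-a2 3.49 and 3.61. Hbb-bs had 4.87 and 5.25 and Hbb-bt 4.62 and 4.40. All 8 values lie below the medians of the 639 genes, and the Hba-a1 interval is wide, with 1646 bp and 1674 bp. Hba-a1 and Hba-a2 are near-identical copies, as are Hbb-bs and Hbb-bt, and how reads that match both were assigned is not given in these sources. GATA words were within 75 bp of the summit at both alpha genes and at neither beta gene.

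The 7 CpG-poor regulators were Gata1, Klf1, Nfe2, Lmo2, Lyl1, Gfi1b and Mafg, of 25 regulators that were open (28%, against 7.04% of all open genes). Gata1, the master regulator (ENSMUSG00000031162.14, minus strand of chromosome X), had enrichments of 4.63 and 5.19 at a summit 77 bp upstream of an annotated start. Klf1, the activator of adult globin and membrane genes (ENSMUSG00000054191.8, chromosome 8), had 5.88 and 5.85, with the summit 626 bp upstream of its start. Nfe2, the bZIP partner of small Maf proteins (ENSMUSG00000058794.12, chromosome 15), had 6.45 and 6.23. Every value of the 7 was under the medians of the 639 genes. Lmo2, the bridge of the Tal1 complex, had 5.45 and 5.58, the Tal1 paralog Lyl1 4.84 and 5.43, the repressor Gfi1b 4.79 and 4.46 and the small Maf protein Mafg 4.18 and 3.78. Klf1 and Nfe2 held a GATA word at the summit and the other 5 did not.

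Of the 26 open heme and iron genes, 3 had CpG-poor promoters (11.5%), against 7.04% of all open genes. Fech, ferrochelatase, which puts iron into heme, had 5.71 and 5.10. Tfr2, the second transferrin receptor, had 7.59 and 8.52. Fech held a GATA word at the summit and Tfr2 did not. The Fech summit lay 1185 bp upstream of the nearest annotated start.

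Membrane and blood group genes made up the largest group, with 16 CpG-poor promoters among 31 open genes (51.6%), against 7.04% of all open genes. Open or not, 20 of the 41 genes of this list had a CpG-poor 5' end, the most of any red cell list. At the top stood Cd59b, an inhibitor of complement lysis, with 13.2 and 13.5, whereas its close paralog Cd59a had 8.47 and 8.23. Epb42, protein 4.2 of the band 3 complex, had 9.48 and 9.62. Ank1, the ankyrin of the red cell skeleton, had 6.32 and 6.07 and Add2, an adducin, 5.75 and 5.39. At each of these genes the replicates lie closer together than the genes do to one another at the ends of this range.

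Slc4a1, the anion exchanger band 3, lay near the bottom with 3.43 and 3.81, but the replicates took different intervals there, 1333 bp apart. Aqp1, a water channel, had 3.05 and 3.39, and its replicate 1 value is the lowest of the 639. Cldn13, a claudin, had 3.63 and 3.47. Further genes of this list lay in between. Rhag had 6.49 and 6.52, Kel 6.19 and 6.30, Ermap 5.74 and 6.33 and Rhd 5.19 and 5.01. Ackr1, which carries the Duffy antigen, had 6.45 and 6.87. All 5 of these genes held a GATA word at the summit, as did Cd47, the marker that restrains phagocytosis, with 7.43 and 7.51. Over the whole list, 9 of the 16 CpG-poor promoters held one. Aqp9, a channel for glycerol, had 7.33 and 7.23 and no GATA word.

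**Figure D4:**
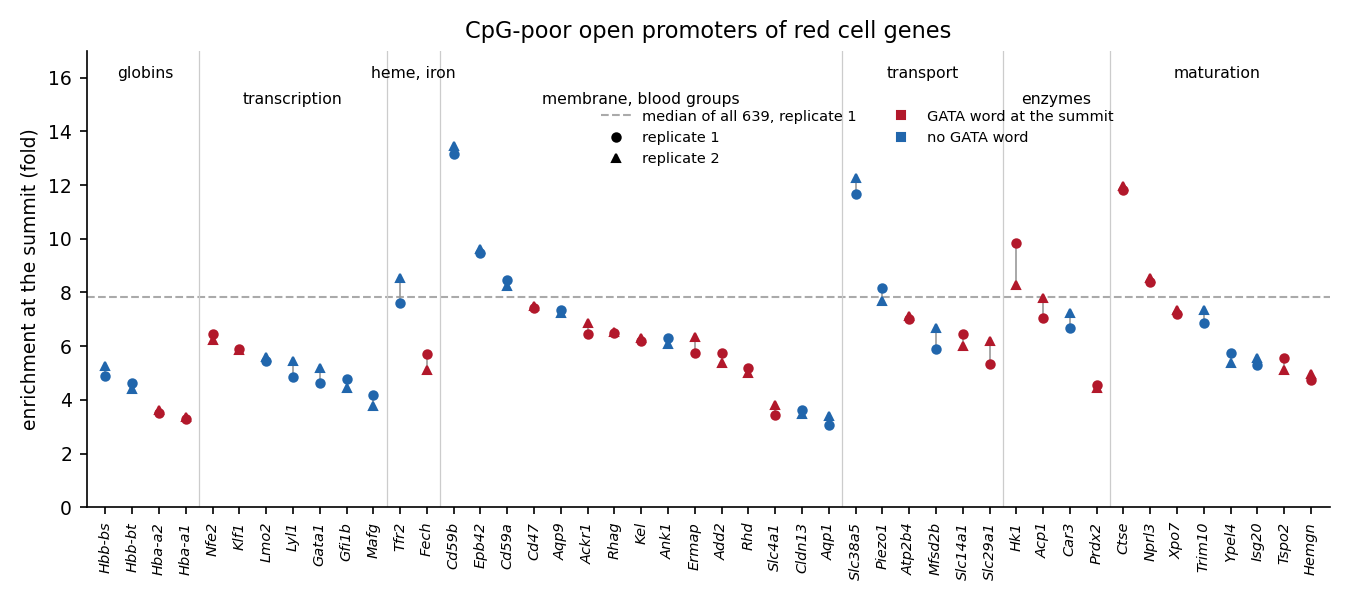
Fold enrichment at the strongest promoter summit for 46 of the 48 CpG-poor open promoters of red cell lists, each gene under the first list that holds it. Circles are replicate 1 and triangles replicate 2, red marks a GATA word within 75 bp of the summit and blue none, and the dashed line is the median of the 639 genes in replicate 1 (7.83). Most genes lie below the line, down to Aqp1 with 3.05 and 3.39.

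Of the transporters, Slc38a5, an amino acid transporter, had the highest values, 11.7 and 12.3. Piezo1, the mechanosensitive channel, had 8.16 and 7.67, the calcium pump gene Atp2b4 7.02 and 7.12 and Mfsd2b, an exporter of sphingosine-1-phosphate, 5.89 and 6.67. Slc14a1 had 6.46 and 6.02 and Slc29a1, a nucleoside transporter, 5.33 and 6.18. Among enzymes, Hk1, the hexokinase of red cells, had 9.85 and 8.27, the phosphatase Acp1 7.06 and 7.79, the carbonic anhydrase Car3 6.68 and 7.23 and the peroxiredoxin Prdx2 4.55 and 4.45. Hk1 has the largest gap between replicates of these 10 genes, and its interval was 650 bp wide in replicate 1 and 1123 bp in replicate 2. GATA words lay at Atp2b4, Slc14a1, Slc29a1, Hk1, Acp1 and Prdx2.

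Maturation genes ranged from Ctse, cathepsin E, with 11.8 and 11.95, to Hemgn with 4.73 and 4.97. Nprl3, whose introns hold enhancers of the alpha globin genes, had 8.37 and 8.53 at an annotated start inside the gene. Xpo7, a nuclear exporter, had 7.21 and 7.34, Trim10, a TRIM protein of red cell precursors, 6.86 and 7.33, Ypel4 5.73 and 5.36, Tspo2, a membrane protein of cholesterol handling, 5.54 and 5.11 and Isg20, an exonuclease, 5.30 and 5.54. GATA words lay at 6 of the 9 genes of this list. Over the 48 red cell genes the count was 26 (54.2%, 40.3% to 67.4%), against 13 of the 115 other open genes of the same lists (11.3%, 6.73% to 18.4%). CpG-poor promoters outside the red cell and Zfp groups held one in 155 of 569 cases (27.2%). Of the 48, 46 had a distal interval within 50 kb, as did 98 of the 115.

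The order of these promoters depended on which deposited value ranked them. By enrichment the 48 red cell genes had median percentiles of 23.8 and 28.2, and by the authors' −log10 p they had 63.2 and 64.2. In both replicates 44 of the 48 stood higher by −log10 p than by enrichment, against 300 of all 639. Hba-a1 moved from percentiles of 1.44 and 1.77 to 44.3 and 48.1, Nfe2 from 31.5 and 29.6 to 85.9 and 82.3 and Epb42 from 68.5 and 69.9 to 98.3 and 98.4. Aqp1 was at 7.87 and 20.7 by −log10 p. The other open genes of the same lists showed this too, with 99 of 115. How the caller set the background for the enrichment is not given in these sources.

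Enrichment percentiles went down as distal intervals within 50 kb went up. For CpG-poor genes with none nearby the medians were 62.7 and 64.3 and for those with 5 or more 25.6 and 37.4. By −log10 p the same groups had 46.2 and 51.7, and 53.3 and 52.5. Other open genes went from 78.7 and 79.6 to 36.3 and 39.7 by enrichment. Red cell genes had a median of 3 distal intervals, and the part of neighbouring open sites in their low enrichment was not tested.

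**Figure D5:**
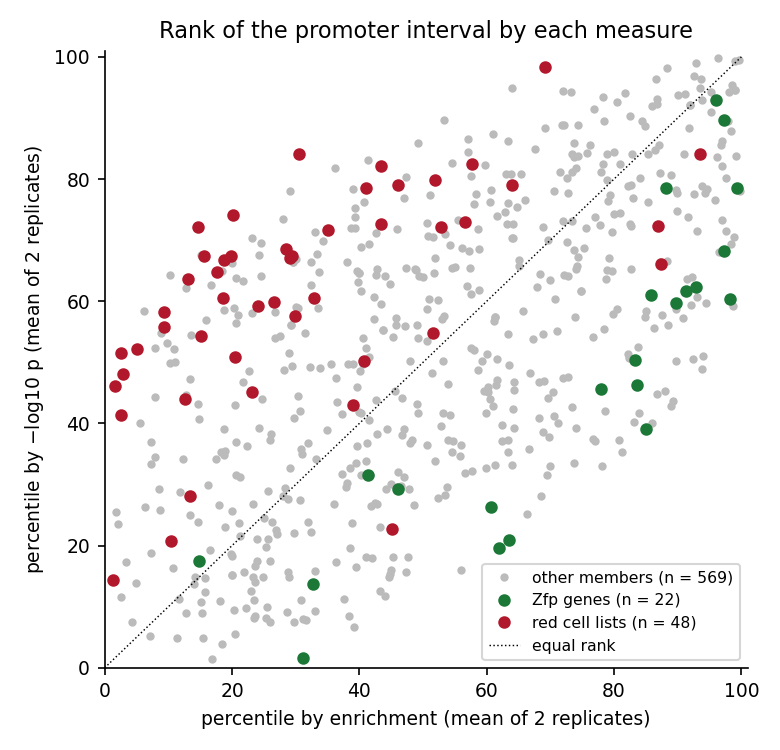
Percentile of the promoter interval in its list by fold enrichment (x axis) and by −log10 p (y axis), each the mean of 2 replicates, for the 639 CpG-poor promoters. Red cell genes (red, n = 48) lie mostly above the dotted line of equal rank and Zfp genes (green, n = 22) below it.

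Zinc finger genes named Zfp made up 22 of the 639 and went the other way. They are 10.2% of the 216 open Zfp genes, against 7.04% of all open genes. Most of this family encodes proteins with arrays of zinc fingers, often with a KRAB domain that recruits silencing factors. The 22 had median enrichments of 10.8 and 11.7, from 4.52 and 5.52 at Zfp605 to 16.4 and 17.2 at Zfp932. In the top 20% of both lists were 11 of the 22, and 1 of the 22, Zfp595, held a GATA word. By −log10 p their median percentiles were 44.3 and 53.1, and 21 of the 22 stood lower by that measure than by enrichment in both replicates. A distal interval lay within 50 kb of 2 of them (9.09%, 2.53% to 27.8%). Of the 22, 8 lie on chromosome 13 and 5 on chromosome 17. The 194 other open Zfp genes had median enrichments of 10.4 and 10.6 and, by −log10 p, median percentiles of 71.8 and 71.6.

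The red cell lists hold 48 of the 639, a share at which few of any 15 would be expected. None of the 15 strongest CpG-poor promoters by enrichment belonged to them, which is little different from that share. By the lower of its 2 percentiles the first was Trmt2b, a tRNA methyltransferase, with 17.8 and 18.4, followed by Trim21, a cytosolic antibody receptor and ubiquitin ligase, with 19.1 and 17.2. Next came Zfp932, Arhgap6, a GTPase-activating protein, with 16.5 and 16.1, and the pair Arl5b, a small GTPase, and Nsun6, an RNA methyltransferase, which share an interval with 15.9 and 16.5. The remaining 9 of the first 15 were Pinlyp, Gm15446, Gm20594, Mterf2, Car5b, A630089N07Rik, Pcyt1b, Sp100 and Cntrl, with enrichments from 14.6 to 16.8. Of these 15, 1 held a GATA word, Pinlyp, whose summit is closer to a start of Xrcc1. The summits of 8 of the 15 lay within 50 bp of a start. At the other end, after Aqp1 and Hba-a1, Smim5 had 3.58 and 3.32 and Grina 3.35 and 3.41, and at Grina the replicates took different intervals.

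Several genes of antiviral and interferon responses were among the CpG-poor promoters, and they were picked out after their values were seen. In the family of interferon-induced genes and immunity GTPases 8 of 11 open genes were CpG-poor: Ifit1, Ifit1bl2, Ifit2, Ifi27, Ifi35, Ifi47, Gbp3 and Irgm2. A CpG-poor 5' end was found in 50 of the 54 genes of the family, open or not. Of these 50, 8 were open at a CpG-poor start (16%, 8.34% to 28.5%), against 5.2% of all such genes, and an interval that covers the 9.89% open at any start. Ifit1, which binds foreign RNA ends, shared its interval with Ifit1bl2 and had 6.02 and 5.01. Ifi35 had 11.8 and 10.2, Irgm2, a GTPase against vacuolar pathogens, 13.02 and 12.8 and Eif2ak2, the RNA-activated kinase PKR, 11.5 and 11.7. None of the 8 held a GATA word at the summit. Further CpG-poor genes were Rsad2 (9.18 and 9.13), Oas3 (6.91 and 7.51), Oasl2 (9.69 and 9.86), Irf7 (7.94 and 7.02), Irf9 (8.36 and 8.41) and Herc6 (12.01 and 13.5). Of these 6, Oasl2, Irf7 and Irf9 held a GATA word.

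An IRF word (GAAANNGAA), the kind bound by interferon regulatory factors, lay at the summit of 30 CpG-poor promoters (4.69%, 3.31% to 6.62%), against 2.25% of other open promoters and 3.96% of flanking windows. The first such word of 6 of these genes, chosen after their values were seen, is shown in capitals on its own strand.
Ifit1, chr19:34640797-34640821, minus strand: agcagtgaGAAActGAAactgagac
Oas3, chr5:120777718-120777742, minus strand: agggaggaGAAAacGAAagtgaagg
Eif2ak2, chr17:78882538-78882562, minus strand: tccgccggGAAAacGAAacagaaga
Irgm2, chr11:58199516-58199538, plus strand: ggaactGAAActGAAagctgttc
Trim30a, chr7:104465212-104465236, plus strand: ggaactgaGAAAaaGAAactaaaga
Psme1, chr14:55578496-55578520, minus strand: cgggaaggGAAAgcGAAagcacagc

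The TRIM family, ubiquitin ligases with several antiviral members, had 9 CpG-poor promoters among 28 open genes (32.1%), against 7.04% of all open genes. Besides Trim21 and Trim10 they were Trim5, Trim12a, Trim12c, Trim30a, Trim34a, Trim56 and Trim69. A CpG-poor 5' end was found in 35 of the 68 genes of the family, open or not. Of these 35, 9 were open at a CpG-poor start (25.7%, 14.2% to 42.1%), against 5.2% of all such genes. Trim5, Trim12a, Trim12c, Trim30a and Trim34a lie together on chromosome 7 within 221 kb, with enrichments from 8.82 at Trim30a to 15.4 at Trim5 in replicate 1. Trim56 held a GATA word at the summit and the other 8 did not. No distal interval lay within 50 kb of the 5 clustered genes.

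Cell cycle genes (23 open), ribosomal protein genes (79 open), mitochondrial ribosomal protein genes (71 open) and histone genes (61 open) had 0 CpG-poor promoters, against 7.04% of all open genes. Open or not, few of these genes had a CpG-poor 5' end, in this order 1 of 23, 5 of 82, 3 of 78 and 1 of 67. Olfactory receptor genes were open in 2 of 1135 cases, Olfr56 and Olfr67, both CpG-poor, and the interval of Olfr56 is closer to a start of Ifi47. A CpG-poor 5' end was found in 1132 of the 1135.

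The 6 CpG-poor markers of other cells had middling values. Gp1ba, a platelet glycoprotein, had 7.69 and 7.74, and Vwf, von Willebrand factor, 6.12 and 6.51 at a summit 1110 bp upstream. Both held a GATA word at the summit, as did Casq2, a calsequestrin of muscle, with 7.52 and 7.73. Cd163, the haptoglobin-hemoglobin receptor of macrophages, had 7.76 and 9.25 at a summit 1198 bp downstream of the start. Fgd5, of stem and endothelial cells, had 7.81 and 8.32, and Muc1, an epithelial mucin, 7.83 and 7.43. The defining macrophage genes Adgre1, C1qa, Vcam1 and Timd4 and the platelet genes Pf4, Ppbp and Gp9 were not open.

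The ratio itself ran from 0.0487 to 0.3497, with a median of 0.263. The lowest values were at Trim30a (0.0487), Gvin1 (0.0566), Gm4070 (0.0572), Msantd1 (0.0722) and Rhag (0.0758). Gvin1 and Gm4070, both of the very large interferon-inducible GTPases, and Rhag held a GATA word at the summit. Just inside the threshold were Cd99l2 (0.3491), Gm49359 (0.3494) and Mfsd2b (0.3497), with mean enrichments of 14.6, 11.0 and 6.28. Just outside were Itga4 (0.3505), Ppm1f (0.3516) and Dynlt3 (0.3517), with 5.30, 12.3 and 15.24. The widest intervals were those of Fermt3 (1867 bp and 556 bp), Tnfaip2 (1846 bp and 1816 bp), 6030468B19Rik (1479 bp and 1745 bp), Ak5 (1721 bp and 642 bp) and Syngr1 (1593 bp and 1716 bp). At Fermt3 and Ak5 the width of one replicate is not repeated in the other.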

How the data were processed

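The deposited files are peak lists of ATAC-seq in 2 replicates of mouse erythroblasts on mm10, and their intervals passed a reproducibility threshold (IDR), per the labels. Each interval has the authors' fold enrichment, a ratio of signal to background at the summit, and the authors' −log10 p. The aligner, the peak caller and the read depth are not given in these sources, so no count model, interval on an enrichment or test between samples was possible.

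Start sites came from GENCODE M21 and sequence from GRCm38.p6. The CpG ratio is the number of CpG times the window length, divided by the product of the numbers of C and G, and the strongest summit is that of the replicate with the higher enrichment percentile. For genes not open, the outermost 5' end was used. Words for 22 motifs were searched on both strands in 151 bp windows. Scripts used Python 3.11.15, numpy 2.4.6, scipy 1.17.1 and matplotlib 3.10.9, and were tested on simulated data. Alternatives changed the start sites, the distance, the CpG threshold and window, the list, the enrichment minimum, the overlap, the replicate and the word windows.

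The genes and lists were chosen with earlier results of these data known. Named genes were the 15 highest and 5 lowest by the lower of both percentiles, all open CpG-poor genes of the red cell and other-cell lists, the 3 genes on each side of the threshold, and the 5 with the widest interval, the lowest ratio and the most distal intervals. All other names were chosen after their values were seen. Of the listed red cell symbols 7 did not match the annotation. Some genes that this rule names are not reported here.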

Additional observations from a re-analysis of the deposited data

How the results depend on the processing

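Of 111 recomputed values, 35 moved, a share when it left the 95% Wilson interval of the reported share and the number of genes when it changed by over 1.5 times, and the cause was not tested. The number of genes, 639, was 442 with a ratio below 0.30, 861 below 0.40 and 926 with the longer pseudoreplicated lists. No paired analysis was possible because the series has 1 group. With the outermost 5' end as the only start, 412 genes met the rule, 4.84% of CpG-poor genes were open, 17% had a GATA word and 21.4% were in the top 20%. With enrichment at or above the list median these were 296 genes, 5.69%, 25% and 36.1%, with a distal interval near 58.8% and a TATA word in 0.338%. With the longer pseudoreplicated lists 13.3% of CpG-poor genes were open, 22.9% had a GATA word, 22% were in the top 20% and 60.6% had a distal interval. A ratio below 0.30 gave 8.58%, 35.7%, 13.1% and 71% for the same 4 shares, and below 0.40 gave 11.5% open, 23.2% with a GATA word and 20.7% in the top 20%. A CpG window of 500 bp either side gave 34.3% with a GATA word, 12% in the top 20% and 72.9% with a distal interval. The share open was 9.08% within 500 bp of a start and 9.12% with starts of protein-coding transcripts. A motif window of 50 bp gave 23% with a GATA word, and distances of 20 kb and 100 kb gave 48.5% and 78.7% with a distal interval. Leaving out 1 replicate gave 10.3% to 10.8% open. Added after the data were seen, a summit within 200 bp of the start left 364 genes, with 24.2% GATA words, 21.7% in the top 20% and 60.4% with a distal interval, and ranking by −log10 p put 12.4% in the top 20%. Both replicates come from 1 group and depth is unknown, so a missing interval does not show a closed promoter.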

Other observations

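The 22 CpG-poor promoters on chromosome X had median enrichment percentiles of 83.0 and 90.3, those on autosomes 48.6 and 50.8. Other open promoters on X had 86.4 and 88.7. By −log10 p the 22 had 57.1 and 63.1. The cells came from male mice, with a single X, and the part of copy number in these values was not tested.

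Some CpG-poor open promoters lie in clusters, joined where neighbouring starts are within 200 kb. The largest holds 11 genes on chromosome 8 over 382 kb with 29 protein-coding genes, among them the red cell genes Klf1, Lyl1 and Prdx2. A cluster of 9 on chromosome 13 over 556 kb consists of Zfp genes and predicted genes. On chromosome 19 a cluster of 9 holds the glutathione transferases Gstp1, Gstp2 and Gstp3, and on chromosome 15 a cluster of 4 consists of the apolipoprotein L genes Apol8, Apol10a, Apol11a and Apol11b.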
